A study of Homo sapiens and synthetic construct with 19 samples.

Results

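The 15-nt form of a CD33 single guide RNA (sgRNA 2) was compared with its 20-nt form by RNA sequencing (RNA-seq) in TF-1 cells, a human erythroleukemia line that grows on GM-CSF. The comparison rested on 4 libraries of the 19 samples in the series, 2 with the 15-nt sgRNA and 2 with the 20-nt sgRNA, chosen by their labels. Only 2 libraries a side exist, and the labels do not say whether they came from separate cultures. The p-values therefore describe only the spread between replicate libraries, pooled over these and the reference libraries named below, and that spread may be technical. All cells expressed dCas9-ZIM3, were transduced with lentivirus carrying the sgRNA, selected with G418 and grown for 2 weeks. The design text of the series names CRISPRgate in place of dCas9-ZIM3. The 15-nt and 20-nt forms of a second CD33 sgRNA (sgRNA 1) and a scrambled control sgRNA, also with 2 libraries each in the same cells, served as reference.

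In CRISPR interference, a Cas9 without nuclease activity (dCas9) carries a KRAB repressor domain, here that of ZIM3, to a promoter. KRAB binds TRIM28, which brings the histone methyltransferase SETDB1 and heterochromatin proteins to the DNA. The sgRNA pairs with its target next to an NGG protospacer adjacent motif (PAM), and the bases closest to the PAM, the seed, weigh most in binding. A spacer shortened at its PAM-distal end matches more places in the genome, and the series asked whether truncation to 15 nt changes the transcriptional off-target effects.

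The target site of sgRNA 2 is given first because every match described later is read against it. It lies on the minus strand of hg38 at chr19:51225937-51225951 for the 15-nt form, in a coding exon of CD33. The site is 22 bp upstream of the nearest annotated start site, which is internal to the gene. It is 864 bp downstream of the principal (Ensembl canonical) start site. The sequences below were read from hg38, 5′ to 3′ on the strand of the match, and end with the PAM.
CD33, 20-nt form with PAM: gtcctggggcccagggaggtggg
CD33, 15-nt form with PAM: ggggcccagggaggtggg

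Recovered read counts of the 4 libraries were 19290686 and 16460344 with the 15-nt sgRNA and 18823437 and 19616765 with the 20-nt sgRNA, and the 10 libraries spanned 16460344 to 19616765. Erythroid and progenitor markers of TF-1 were present, among them GATA1 with normalized counts of 2132 to 2331 and CD34 with 3289 to 3796 over the 4 libraries. CSF2RA, which encodes the GM-CSF receptor alpha chain, was listed at 0 to 1.75, although its partner CSF2RB reached 2048 to 2429. The study used CSF2RA as a positive control of its TF-1 screen, so this listing is not read as absence of the receptor. Its cause was not tested. The B-cell marker MS4A1, the stromal marker COL1A2 and the epithelial marker KRT19 were at 0 in all 4. The summed counts of the lymphoid, stromal, epithelial and endothelial marker lists were 116 to 141, 41.1 to 59.4, 7087 to 7928 and 4176 to 4831, and most of the epithelial sum came from KRT8 and KRT18. Among genes with a mean of at least 50, the root mean square log2 difference was 0.236 between the 15-nt libraries and 0.201 between the 20-nt libraries. Between libraries of different length it was 0.182 to 0.303, a range that includes both replicate distances.

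The target itself did not differ measurably between the lengths. CD33 (ENSG00000105383, chr19:51225064-51243860, plus strand), a sialic acid-binding inhibitory receptor of myeloid cells, had normalized counts of 485 and 484 with the 15-nt sgRNA and 420 and 426 with the 20-nt sgRNA. Both 15-nt values lay above both 20-nt values, and the control libraries, at 516 and 445, spanned the 15-nt values. Against control, the log2 difference of CD33 was 0.02 with 15 nt and −0.18 with 20 nt (limma adjusted p = 0.902 and 0.136). So neither form lay measurably below control, and the lack of a length difference does not show equal silencing. The log2 fold change (LFC) of 15 nt against 20 nt was 0.19 (standard error 0.11, limma adjusted p = 0.489), with a 95% interval of −0.03 to 0.42. With sgRNA 1 the values were 217 and 205 at 15 nt and 302 and 307 at 20 nt, an LFC of −0.53 (limma adjusted p = 0.0645) in the opposite direction. The difference between the 2 length effects was 0.72 (95% interval 0.41 to 1.04, limma adjusted p = 0.0419). This call rested on the setting, since it was kept in 11 of 18 alternative fits, with adjusted p between 0.00966 and 0.282.

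Across the transcriptome, 17 of 16720 tested genes passed the threshold of an adjusted p under 0.05, which is 0.102% of those tested. Of these, 15 were lower with the 15-nt sgRNA (0.0897%) and 2 were higher (0.012%). Without the first 15-nt library the split was 13 lower and 10 higher. The 15-nt and 20-nt libraries did not overlap for any of the 17 genes, while 7064 of all tested genes (42.2%) did not overlap either. At an unadjusted p under 0.05, 1036 genes were lower (6.2%) and 791 higher (4.73%), or 10.9% together. For the 15 lower genes the 20-nt level was 1.36 to 4.72 times the 15-nt level on the log2(value + 1) scale. The smallest two-sided p that an exact permutation of 2 against 2 libraries can give is 0.333. The limma calls rest on a spread shared across genes and pooled over all 5 groups. That spread was not equal. Between replicates, the chi-square per degree of freedom of the reads was 10.6 for 15-nt and 7.69 for 20-nt sgRNA 2. It was 8.99 and 4.86 for sgRNA 1 and 3.93 for the control. With only the sgRNA 2 libraries in the fit, 17 genes passed, 13 of them among the 17 reported. Of the 17 calls, 5 were kept in all 19 alternative settings, those of TNFAIP2, MOCS1, TRIM38, PTER and ATP2A3.

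**Figure D1:**
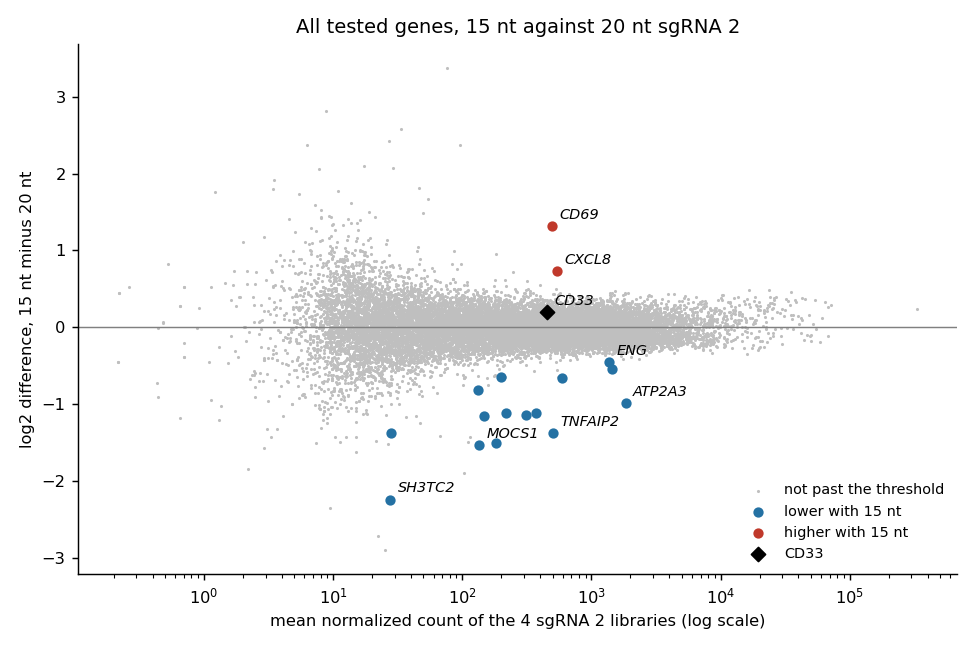
Log2 difference of each of the 16720 tested genes (15 nt minus 20 nt, vertical axis) against its mean normalized count over the 4 sgRNA 2 libraries (horizontal axis, log scale). Each point is 1 gene, blue for the 15 lower and red for the 2 higher genes past the threshold and a black diamond for CD33. The called genes lie at means from about that of SH3TC2 to that of ATP2A3, and most grey points with larger differences have low means.

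The called genes are described by their known roles, an order chosen after the calls and not a tested grouping. TNFAIP2 (ENSG00000185215, chr14:103121476-103137439), a gene induced by tumor necrosis factor, had normalized counts of 300.4 and 263.5 with the 15-nt sgRNA and 725.9 and 733.1 with the 20-nt sgRNA. Its LFC of −1.37 (standard error 0.09, limma adjusted p = 5.84e-07) had the smallest p of all genes. The 20-nt level lay within the range of the 4 sgRNA 1 libraries, 724.6 to 791.2, whereas the control libraries held 2091 and 2214. So both forms of sgRNA 2 lay below control, and the 15-nt form lay below every other library.

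TRIM38, a ubiquitin ligase that regulates innate immune signalling (ENSG00000112343, chr6:25962802-25991231), showed the same order. Its counts were 193.0 and 191.9 with 15 nt, 409.0 and 441.8 with 20 nt, 430.9 to 504.8 with sgRNA 1 and 950.4 and 957.3 in the control (LFC −1.14, standard error 0.10, limma adjusted p = 1.18e-05). VSIR, which encodes the immune checkpoint protein VISTA, had counts of 1217 and 1143 with 15 nt against 1758 and 1681 with 20 nt (LFC −0.54, standard error 0.08, limma adjusted p = 0.00316). Here the 20-nt libraries overlapped the control at 1732 and 1659, and only the 15-nt libraries stood below it.

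The genes that were higher with the 15-nt sgRNA were CD69 and CXCL8. CD69, an early activation antigen, had counts of 645.4 and 763.2 with 15 nt and 270.0 and 292.2 with 20 nt (LFC 1.32, standard error 0.14, limma adjusted p = 8.94e-05). The control libraries were higher still, at 1444 and 1305, and the sgRNA 1 libraries ranged from 162.3 to 291.7. CXCL8, the neutrophil chemoattractant interleukin-8, had counts of 584.3 and 775.9 against 363.8 and 451.3 (LFC 0.73, standard error 0.13, limma adjusted p = 0.0423). Its control libraries reached 8041 and 7673 and the sgRNA 1 libraries only 88.4 to 101.7, so the 2 lengths of sgRNA 2 lay between these extremes. The CXCL8 call was kept in 12 of 19 alternatives.

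Of the lower genes, 3 encode enzymes of metabolism. MOCS1, which catalyzes the first step of molybdenum cofactor synthesis (ENSG00000124615, chr6:39899578-39934551), had counts of 70.7 and 67.5 with 15 nt and 218.6 and 186.1 with 20 nt (LFC −1.53, standard error 0.15, limma adjusted p = 4.6e-05). The sgRNA 1 libraries lay at 180.2 to 198.0, close to the 20-nt form, and the control libraries lay at 71.1 and 64.0, overlapping the 15-nt form. PTER, a phosphotriesterase-related hydrolase (ENSG00000165983, chr10:16436943-16513745), had 231.4 and 238.2 against 483.3 and 533.9 (LFC −1.11, standard error 0.09, limma adjusted p = 1.11e-05). Its sgRNA 1 libraries at 1540 to 1713 and control libraries at 986.6 and 913.8 were all above both forms. RENBP, an epimerase of N-acetylglucosamine and N-acetylmannosamine, had 494.3 and 420.6 against 698.4 and 747.9 (LFC −0.66, standard error 0.09, limma adjusted p = 0.00315). The control libraries of RENBP held 3723 and 3762.

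A further 5 lower genes have roles in membrane transport or trafficking. ATP2A3, the calcium pump SERCA3 of the endoplasmic reticulum (ENSG00000074370, chr17:3923870-3964464), had counts of 1298 and 1176 with 15 nt and 2475 and 2435 with 20 nt (LFC −0.99, standard error 0.08, limma adjusted p = 1.11e-05). The sgRNA 1 libraries were at 5363 to 6426 and the control libraries at 1062 and 1016, so ATP2A3 with the 15-nt sgRNA was below all other CD33 sgRNA libraries and above the control by 0.25 (limma adjusted p = 0.0134). STX8, an endosomal syntaxin (ENSG00000170310, chr17:9250471-9576591), had 87.3 and 100.1 against 259.4 and 276.5 (LFC −1.51, standard error 0.14, limma adjusted p = 2.14e-05). SH3TC2, an endosomal recycling protein mutated in Charcot-Marie-Tooth neuropathy, had the largest LFC of the called genes at −2.24 (standard error 0.31, limma adjusted p = 0.00315), with counts of 10.5 and 7.4 against 57.5 and 35.7. SLC6A19, a neutral amino acid transporter, had 91.7 and 98.0 against 165.5 and 170.4 (LFC −0.82, limma adjusted p = 0.0123). RINL, a Ras and Rab interactor-like protein, had 159.8 and 147.6 against 255.8 and 227.8 (LFC −0.65, limma adjusted p = 0.0423). Of these, RINL and SLC6A19 kept their calls in only 6 and 10 of 19 alternatives.

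Secreted factors and a receptor made up most of the rest. BMP6, a bone morphogenetic protein, had counts of 149.3 and 126.5 with 15 nt and 309.8 and 287.8 with 20 nt (LFC −1.11, standard error 0.14, limma adjusted p = 0.00149). ENG, the TGF-beta co-receptor endoglin, had 1176 and 1146 against 1626 and 1544 (LFC −0.45, standard error 0.08, limma adjusted p = 0.0292). SPX, the peptide hormone spexin, had 15.7 and 14.8 against 43.4 and 39.1 (LFC −1.38, standard error 0.25, limma adjusted p = 0.0405). SPRYD4, a SPRY domain protein, had 81.2 and 101.2 against 199.2 and 207.8 (LFC −1.16, standard error 0.16, limma adjusted p = 0.00227). ENG and SPX kept their calls in 8 of 19 alternatives each, SPRYD4 in 15.

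**Figure D2:**
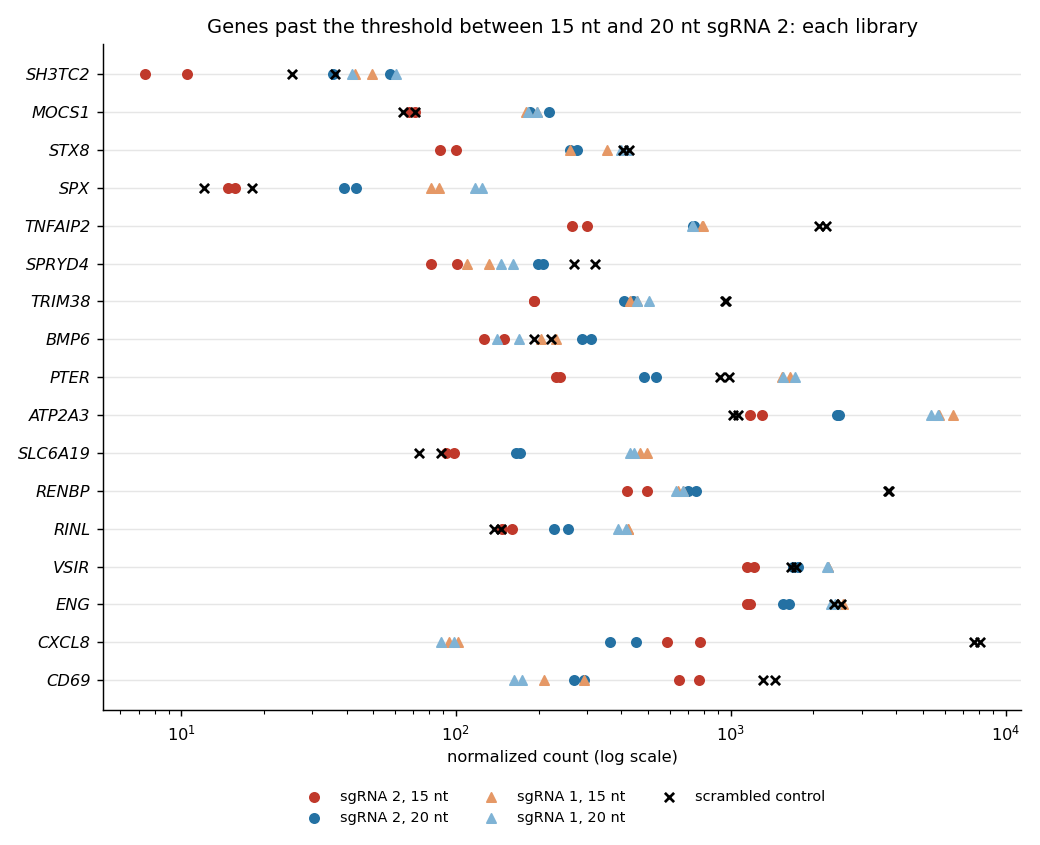
Normalized count (horizontal axis, log scale) of each of the 17 called genes in each of the 10 libraries, 2 points per group. Red circles mark the 15-nt and blue circles the 20-nt form of sgRNA 2, triangles the forms of sgRNA 1 and crosses the scrambled control. The red and blue circles do not overlap in any row, and the crosses lie on either side of them depending on the gene.

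The order of the groups differed from gene to gene. In 14 of the 15 lower genes both 15-nt libraries of sgRNA 2 lay below all 6 other CD33 sgRNA libraries, the exception being BMP6, against 8.82% of all tested genes. In 9 of the 15 they lay below the control libraries as well, against 3.91% of all tested genes. These genes were called for low 15-nt values, which fixes much of both counts. Against control, 10 of the 15 lower genes were lower and 1 higher with the 15-nt sgRNA, while 7 were lower and 6 higher with the 20-nt sgRNA (limma adjusted p under 0.05 for each). These counts stand against a large background, since 74.0% of all tested genes differed between the 15-nt sgRNA and the control (35.0% lower and 39.0% higher) and 74.1% between the 20-nt sgRNA and the control (35.0% and 39.1%). Both comparisons share the control libraries. The control libraries held values above 0 for 32742 and 30969 genes, against 25235 to 26217 in the CD33 sgRNA libraries, at similar read totals. How far the differences from control, in single genes as well, follow from this was not tested.

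The same genes were then read in the length comparison of sgRNA 1, whose LFCs share no library with those of sgRNA 2. The limma p-values of both comparisons share 1 spread, pooled over all 5 groups, so the tests are not independent. None of the 17 passed the limma threshold there (4 lower genes and 1 higher gene had an unadjusted p under 0.05), and the LFCs of the 15 lower genes had a median of 0.003 and ranged from −0.53 to 0.49. The sgRNA 1 comparison called 17 genes of its own (0.102%), 5 lower (0.0299%) and 12 higher (0.0718%) with the 15-nt form, and 0 of them were among the 17 of sgRNA 2. For 12 of the 15 lower genes the difference between the 2 length effects itself passed the threshold, against 0.891% of all genes (149 of 16720, of which 117, or 0.7% of those tested, were more negative for sgRNA 2). It did not pass for SPX, SPRYD4 and RINL (limma adjusted p = 0.155, 0.0662 and 0.0514) or for CXCL8 and CD69 (limma adjusted p = 0.07 and 0.0561). CD69 was higher with 15 nt in both sgRNAs, with an LFC of 0.55 in sgRNA 1 (limma adjusted p = 0.0989). The genes tested here were those already called in sgRNA 2, whose libraries enter both tests. The count of 149 depended strongly on the setting and fell to 12 without the control libraries.

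**Figure D3:**
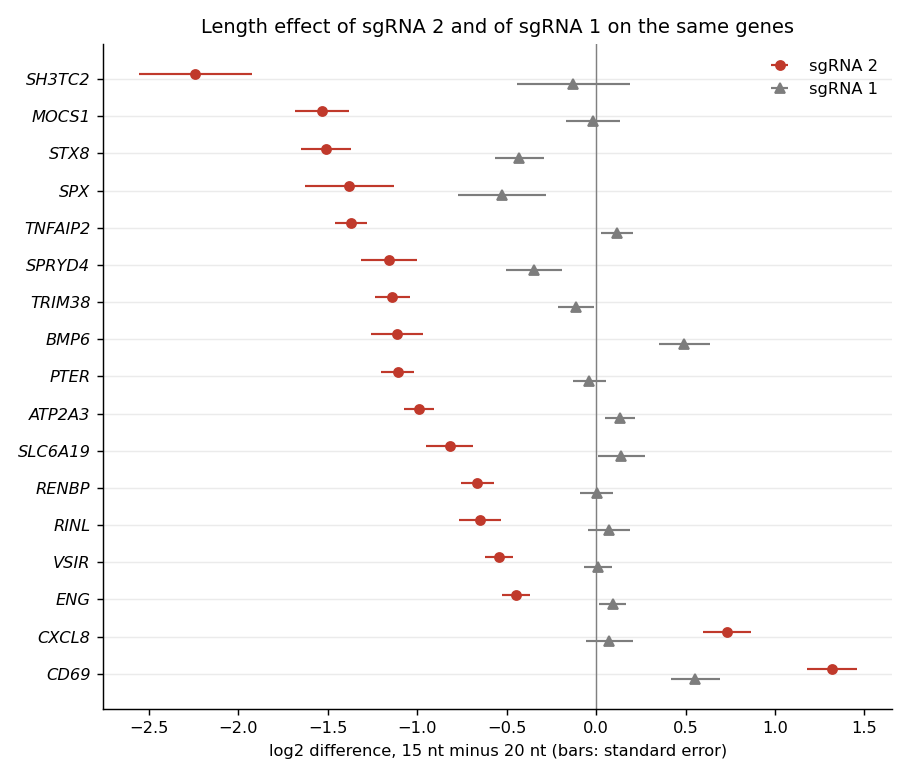
Log2 difference of 15 nt minus 20 nt (horizontal axis) for sgRNA 2 (red circles) and sgRNA 1 (grey triangles) for the 17 called genes, with bars of 1 standard error. The red values of the lower genes run from −2.24 to −0.45 and the grey values of these genes scatter around 0, from −0.53 to 0.49. The grey values of CXCL8 and CD69 are 0.07 and 0.55.

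Sites resembling the 15-nt spacer next to an NGG PAM were searched within 1000 bp of all annotated start sites. With up to 3 mismatches (MMs), 6 of the 15 lower genes had a site, or 40%, against 1914 of all 16720 tested genes, or 11.4%. With up to 2 MMs it was 3 of 15 (20%) against 1.67%, and with up to 4 MMs 12 of 15 (80%) against 44.1%. Neither CXCL8 nor CD69 had a site with up to 5 MMs. These shares are a description of a small set. They were not matched for the number of annotated start sites, which sets how much sequence is searched, or for GC content. Of the 15 lower genes, 5 lay in the highest of 5 equal bins of transcript GC content and 4 in the next. Near the principal (Ensembl canonical) start site alone, 4 of the 15 lower genes (26.7%) had a match with up to 3 MMs against 6.2% of all genes.

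**Figure D4:**
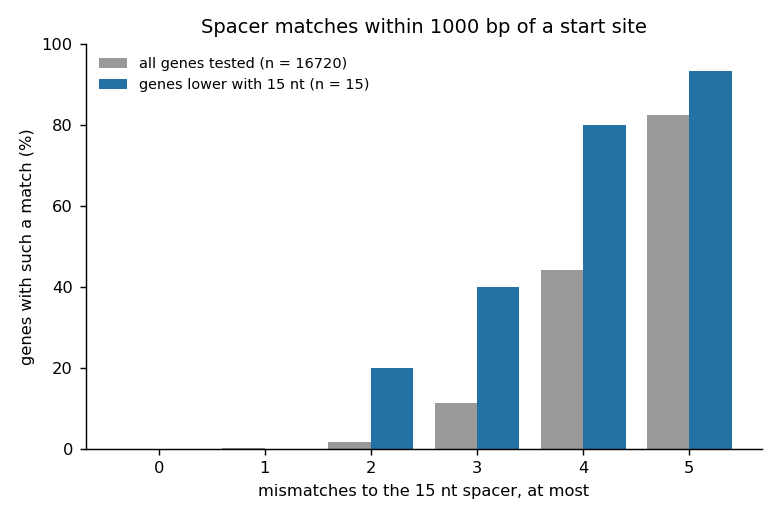
Share of genes (vertical axis, percent) with a match to the 15-nt spacer within 1000 bp of an annotated start site, by the largest number of mismatches allowed (horizontal axis). Grey bars are all 16720 tested genes and blue bars the 15 genes lower with the 15-nt sgRNA, which reach 20%, 40% and 80% at 2, 3 and 4 mismatches against 1.67%, 11.4% and 44.1%.

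The sites of the 6 genes are shown because they are the nearest matches among the genes lower with the 15-nt sgRNA. Lower is meant against the 20-nt form, not against control. Of the 6 genes, SPX with 15 nt did not differ from control (log2 difference 0.04, limma adjusted p = 0.89), and the others lay below it. Each is read from hg38 in the 15-nt frame with its PAM, in lower case where it matches the spacer and in capitals where it does not. In the substitutions the spacer base stands first, then its position counted from 1 at the 5′ end of the 15-nt spacer, then the base of the site, so position 15 adjoins the PAM.
SH3TC2, chr5:149063189-149063203: gAggcccagggaggGtgg
SPRYD4, chr12:56468664-56468678: gAggcccagAgaggtagg
RENBP, chrX:153943321-153943335: ggAgcccagggaggAggg
RENBP, chrX:153942791-153942805: ggTgcccagggGAgtggg
RENBP, chrX:153944915-153944929: ggggcccCggCaggGcgg
ENG, chr9:127854696-127854710: CCggcccagggaggCagg
ENG, chr9:127854798-127854812: ggggcccTgggaTgGggg
SPX, chr12:21528112-21528126: ggTCcccagggagTtagg
STX8, chr17:9273362-9273376: ggCgcTcagggagTtggg

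The SH3TC2 site on the plus strand (substitutions G2A and T15G) lay 33 bp upstream of a start site and outside the gene body. The SPRYD4 site (G2A and G10A) was within the coding sequence, at 93 bp past the start site, and had the longest unbroken match next to the PAM of the 9 sites, 5 bases. The closest RENBP site (G3A and T15A) was intronic, 304 bp downstream of one start site and 1315 bp downstream of the principal one. Both ENG sites lay upstream of the gene, at 45 and 147 bp. The SPX and STX8 sites lay 167 and 65 bp downstream of internal start sites, but 1823 and 302451 bp downstream of the principal ones. In 5 of the 9 sites the base next to the PAM was itself a mismatch. Extended to the 20-nt spacer, the 9 sites had 6 or 7 MMs, so the 5 PAM-distal bases added 3 or 4.

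Of the other 9 lower genes, 6 had a best match with 4 MMs, 2 with 5 and 1 with 6. The best matches of the 5 genes called in every setting are printed to show how far they are from the spacer.
TRIM38, chr6:25963516-25963530: CAgAcccaAggaggtagg
MOCS1, chr6:39934597-39934611: CCggcccaggAaAgtggg
TNFAIP2, chr14:103122311-103122325: ggggGccagCgGAgtggg
ATP2A3, chr17:3965066-3965080: ggggcccGAgAGggtggg
PTER, chr10:16436986-16437000: AAAgGccagggaAgttgg
The first 4 have 4 MMs, as 44.1% of all tested genes do or better, and PTER has 5. TRIM38 matched over the 6 bases next to the PAM, in an intron 721 bp downstream of the start site.

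None of the 28 tested genes with fewer than 2 MMs was called. Only 0.102% of all tested genes were called, so a set this small cannot show an absence of effect. The 26 tested genes with a best match of 1 MM held 0 called genes (limma) and had a median LFC of −0.11. At an unadjusted p under 0.05, 3 were lower and 1 higher, against 6.2% and 4.73% of all genes. A perfect match lay beside SIGLEC17P, a Siglec pseudogene upstream of CD33, at chr19:51168223-51168237. SIGLEC17P had counts of 8.73 and 10.5 at 15 nt and 6.20 and 12.2 at 20 nt (LFC 0.12, limma adjusted p = 0.93). Both lengths were far below the control at 72.3 and 73.6. The sgRNA 1 libraries of SIGLEC17P were as low, at 3.60 to 7.92. SIGLEC6, also with a perfect match, was too low to be tested, with 5.24 and 1.05 at 15 nt and 6.20 and 7.83 at 20 nt. Over all genes the median LFC moved from −0.08 at 2 and 3 MMs to −0.04 at 4, 0.004 at 5, 0.05 at 6 and 0.08 at 7. The sgRNA 1 comparison, read against the same sgRNA 2 matches, ran the other way, from 0.05 at 2 MMs to −0.07 at 7. With trends on transcript length and GC content removed, the medians were −0.02, −0.02, −0.01, −0.0009, 0.006 and 0.006 from 2 to 7 MMs.

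Length and GC content moved with the comparison as a whole. With genes in 5 bins of equal size, the median LFC went from 0.07 in the shortest to −0.08 in the longest bin, and from 0.07 in the lowest to −0.08 in the highest GC bin. In the sgRNA 1 comparison the signs were opposite (−0.06 to 0.08 for length). The length trend lay mainly in the second 15-nt and the first 20-nt library, whose medians for the longest bin deviated by −0.07 and 0.09 from the mean of the 4 libraries, against −0.01 and −0.01 in the other libraries. With both trends removed, 16 genes passed, 12 lower and 4 higher, and 14 of them were among the 17.

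None of the 8 tested neighbors with a start site within 10 kb of that of a called gene passed the test. Only 0.102% of all tested genes passed, so a set this small cannot show that neighbors were unchanged. At an unadjusted p under 0.05, AL162586.1 beside ENG, HCFC1 beside RENBP, MIP, GLS2 and AC011455.1 were lower, against 6.2% of all genes. NAA10, ARHGAP4 and SIRT2 did not reach this level. AL162586.1 had an LFC of −0.37 (limma adjusted p = 0.433). MIP, whose start site is 424 bp from that of SPRYD4 on the opposite strand, had an LFC of −0.92 (limma adjusted p = 0.444), GLS2, 3894 bp from SPRYD4, had −0.96 (limma adjusted p = 0.45), and the noncoding gene AC011455.1, 116 bp from RINL on the opposite strand, had −0.72 (limma adjusted p = 0.444). Whether the counting used strand is not given in the sources used here, so reads of such overlapping or adjoining genes may not be fully separated.

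Known gene groups were read from 23 lists. Over all tested genes the median LFC was −0.01, 52.7% of LFCs were negative and 47.3% positive, 0.102% of genes were called, and 6.2% were lower and 4.73% higher at an unadjusted p under 0.05. The lists were chosen with earlier results known, and those on molybdenum cofactor, sialic acid, endosomal SNARE and Charcot-Marie-Tooth genes each contain 1 called gene that may have led to their choice. The same may hold for the other lists with called genes, those of NF-kB and TNF targets, TGF-beta and BMP signalling and immediate early genes. The NF-kB and TNF target list had 3 called genes of 29 tested, TNFAIP2 lower and CD69 and CXCL8 higher, and a median LFC of −0.03. NFKB1, a subunit of NF-kB itself, had an LFC of −0.33 (limma adjusted p = 0.444). CXCL2, a chemokine related to CXCL8, had counts of 108 and 105 against 54.0 and 66.1 without passing (LFC 0.83, limma adjusted p = 0.34). Of 31 TGF-beta and BMP signalling genes, BMP6 and ENG were lower and none was higher (median −0.02). Single genes were called lower among 22 sialic acid and aminosugar genes (RENBP), 28 endosomal SNAREs and tethers (STX8), 7 molybdenum cofactor genes (MOCS1) and 15 Charcot-Marie-Tooth endosome genes (SH3TC2).

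Of 30 immediate early genes, which respond to growth factor signals without new protein synthesis, CD69 was higher and 0 were lower (limma). Of all tested genes, 0.102% were called. At an unadjusted p under 0.05, 8 were higher and 3 lower, against 4.73% and 6.2% of all genes. JUN, an AP-1 subunit, had counts of 2314 and 2111 with 15 nt and 1589 and 1648 with 20 nt (LFC 0.45, limma adjusted p = 0.0553), and an LFC of 0.45 in sgRNA 1 as well (limma adjusted p = 0.052). EGR1, a zinc-finger transcription factor, had mean counts of 2087 ± 243 and 1545 ± 49.2 (SD, n = 2; LFC 0.43, limma adjusted p = 0.329), and an LFC of 1.00 in sgRNA 1 (limma adjusted p = 0.000541). The list was not of 1 direction, as BTG2 and FOSL2 had LFCs of −0.58 and −0.38 (limma adjusted p = 0.275 and 0.348). The median of the list was 0.04, against 0.20 in sgRNA 1. Its deviations from the mean of the 4 sgRNA 2 libraries were 0.08 and −0.04 with 15 nt and −0.05 and −0.004 with 20 nt.

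The 43 interferon response genes held 0 calls (limma), but 40 of them had a negative LFC (52.7% of all genes did), with a median of −0.20. At an unadjusted p under 0.05, 14 were lower and 1 higher, against 6.2% and 4.73% of all genes. Both 15-nt libraries lay below the mean of the 4, at −0.06 and −0.13, and both 20-nt libraries above it, at 0.10 and 0.11. OAS1, an antiviral 2′,5′-oligoadenylate synthetase, had counts of 81.2 and 69.6 against 103 and 103 (LFC −0.44, limma adjusted p = 0.45), and HERC6 had 203 and 174 against 259 and 244 (LFC −0.42, limma adjusted p = 0.444). BST2, the antiviral protein tetherin, was 1 of the 3 with a positive LFC, at 0.23 (limma adjusted p = 0.444).

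The 78 cytosolic ribosomal protein genes had 0 calls (limma) and a median LFC of 0.28, with 76 positive (47.3% of all genes were). At an unadjusted p under 0.05, 44 were higher and 0 lower, against 4.73% and 6.2% of all genes. This median came from 1 library of each form, as the second 15-nt library deviated by 0.27 and the first 20-nt library by −0.28 from the mean of the 4, while the others deviated by 0.02 and 0.004. RPL27, for example, had counts of 17109 and 21062 against 10646 and 17268. The 48 mitochondrial ribosomal protein genes and 72 nuclear oxidative phosphorylation genes (medians 0.14 and 0.18, 0 calls by limma, 9 and 20 higher and 0 lower at an unadjusted p under 0.05) shared the pattern, with 0.18 and 0.16 in the second 15-nt library and −0.15 and −0.18 in the first 20-nt library. These are the same libraries in which transcript length moved, and its part in the list medians was not tested beyond the fit with trends removed, which gave 0.24, 0.08 and 0.12.

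The 23 partners of KRAB repression, such as MBD2 (LFC −0.28, limma adjusted p = 0.444), had 0 calls (limma). Their median was −0.16, against 0.17 in sgRNA 1. At an unadjusted p under 0.05, 8 were lower and 0 higher, against 6.2% and 4.73% of all genes. The median deviation was −0.16 in the second 15-nt library and −0.01 in the first. The 12 Siglec genes had 0 calls (limma, 0 also at an unadjusted p under 0.05) and a median of 0.01, with CD33 the highest at 0.19. The remaining 10 lists were on p53, ATF4, cholesterol, chaperones, cell cycle, histones, erythroid, myeloid, megakaryocyte and other cell types. They had no member past the limma threshold. At an unadjusted p under 0.05 each list held 0 to 9 lower and 0 to 4 higher members, against 6.2% and 4.73% of all genes. Their medians ran from −0.13 (erythroid genes) to 0.08 (cholesterol synthesis).

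**Figure D5:**
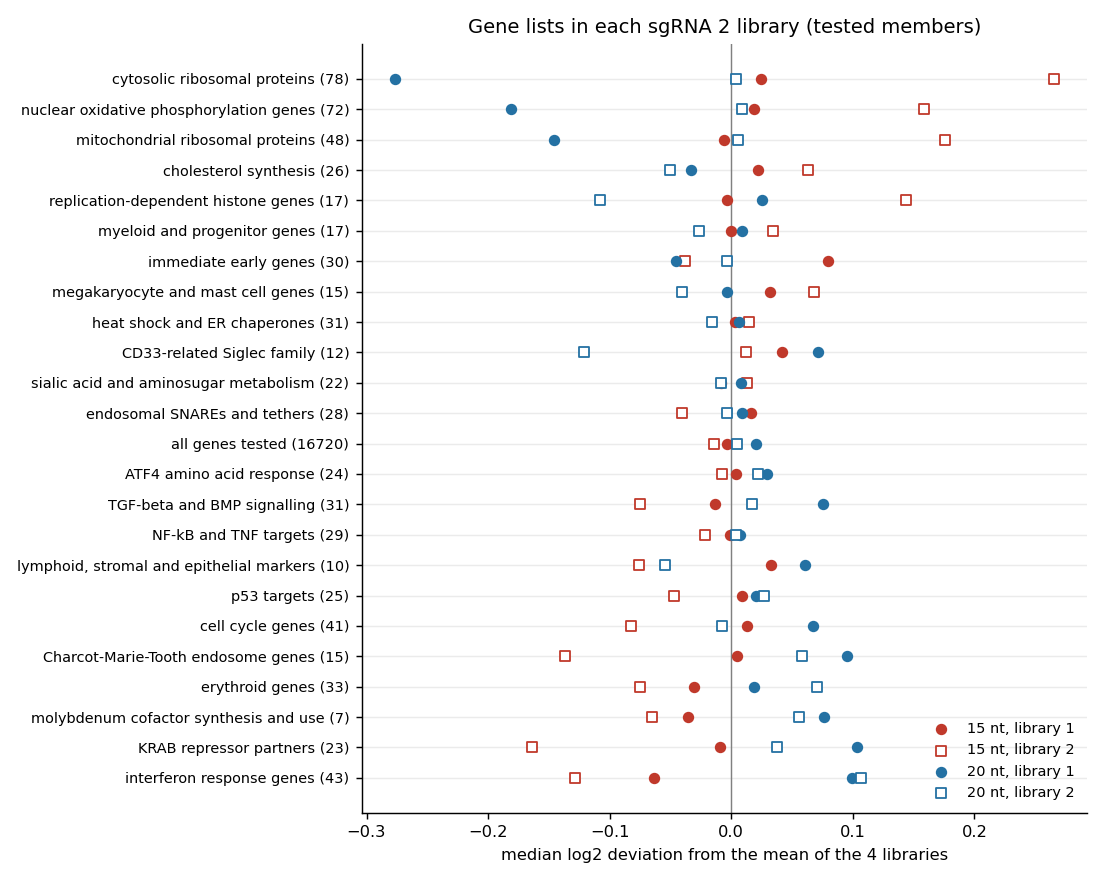
Median log2 deviation of each gene list (rows, with the number of tested members) from the mean of the 4 sgRNA 2 libraries (horizontal axis). Red marks the 15-nt and blue the 20-nt libraries, filled circles the first and open squares the second library. Ribosomal and oxidative phosphorylation genes spread by library, from −0.28 to 0.27 for cytosolic ribosomal proteins, whereas for interferon response genes both red marks lie at −0.06 and −0.13 and both blue marks near 0.10.

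Among the 10 next largest differences that did not overlap between the lengths but did not pass, 2 were uneven between replicates, those of SINHCAF and the unclassified transcript AL356289.3. SINHCAF, a subunit of the SIN3 histone deacetylase complex, had counts of 34.9 and 308 with 15 nt and 18.6 and 20.0 with 20 nt (LFC 2.38, limma adjusted p = 0.444), so the difference lay in 1 library. The others were more even, among them IL17RA, the interleukin-17 receptor (74.2 and 84.3 against 136 and 117, LFC −0.67, limma adjusted p = 0.329), PDXDC1 (92.6 and 67.5 against 112 and 141, LFC −0.66, limma adjusted p = 0.444) and the guanine nucleotide exchange factor NGEF (51.5 and 35.8 against 78.8 and 69.6, LFC −0.77, limma adjusted p = 0.444). VAMP7, an endosomal SNARE with an LFC of only 0.25 (limma adjusted p = 0.957), had 21.8 and 361 against 318 and 17.4, with 1 high and 1 low library on each side.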

How the data were processed

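RNA-seq of 10 TF-1 libraries was used, 2 each for the 15-nt and 20-nt forms of CD33 sgRNA 2 and sgRNA 1 and the scrambled control. Poly(A) RNA was sequenced. After trimming (Trimmomatic), alignment to hg38 (HISAT2) and counting per gene (htseq-count), the authors deposited signal values, which are counts divided by 1 size factor per library, and named DESeq2 for their comparisons. For software versions and gene annotation, the authors' choice is not given in the sources used here. In the deposited signal, 100% of values became whole reads within 0.01 after division by the smallest step of each library. The file had 1 further column that no label names, which was not used. The screen, wild-type cells and amplicons were not analysed here.

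Genes with a mean of at least 10 over the 10 libraries (16720 of 58050) were tested on log2(value + 1) with limma 3.58.1 (R 4.3.3), with a trended prior and 1 term per group, two-sided, with Benjamini-Hochberg adjustment over all genes and a threshold of 0.05. A fold change on this scale understates the change of low genes. Alternatives used other pseudocounts, filters, priors, libraries and scalings, edgeR 4.0.16 and DESeq2 1.42.0 on recovered reads, each sgRNA 2 library left out, a replicate block, and loess trends on length and GC content (99.1% of tested genes matched to GENCODE v44) removed. The fit and the site search were tested on simulated data. The spacers were read from the study's sgRNA list only to search hg38 for sites, and the printed sequences come from hg38, where both forms match CD33 in full. Members and gene lists were chosen with earlier results of these data known.

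Genes named are CD33, all genes past the threshold, the 5 highest and 5 lowest differences with a mean of at least 50 that had an unadjusted p under 0.05 and no overlap but did not pass, members of each list with that mean and the 2 highest and 2 lowest differences, Siglec genes with a match of 0 or 1 MM, and SIGLEC6, SIGLEC14, COX6A1 and EGR1, which the study drew as off-targets, of which those bearing on the results are printed. The best matches with over 3 MMs, the neighboring genes and the match near principal start sites were added after values were seen.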

Additional observations from a re-analysis of the deposited data

Results flagged for a closer look

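The length effect differed between sgRNA 2 and sgRNA 1 for CD33 and for 12 of the 15 lower genes (limma test of the difference itself, 2 libraries per group), against 0.891% of all tested genes. The lower genes were chosen for their effect in sgRNA 2, which enters this test. The CD33 difference was 0.72 (limma adjusted p = 0.0419), from 0.19 in sgRNA 2 and −0.53 in sgRNA 1. It passed in only 11 of 18 alternative fits (adjusted p up to 0.282). The differences of the lower genes, as log2 values of sgRNA 2 minus sgRNA 1, were −2.11 for SH3TC2, −1.61 for BMP6, −1.52 for MOCS1, −1.49 for TNFAIP2, −1.12 for ATP2A3, −1.08 for STX8, −1.07 for PTER, −1.03 for TRIM38, −0.96 for SLC6A19, −0.67 for RENBP, −0.55 for VSIR and −0.54 for ENG. The adjusted p of these ran from 3.23e-05 for TNFAIP2 to 0.0441 for SH3TC2. TNFAIP2, TRIM38, PTER and ATP2A3 passed this test in 16 of 18 alternative fits each, BMP6 in 15, MOCS1 in 14, STX8 in 11, RENBP in 10, SLC6A19 in 9, VSIR and ENG in 8, and SH3TC2 in 6 of 17.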

How the results depend on the processing

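The number of genes differing between the lengths of sgRNA 2 was 17 as reported, 5 with no filter on low values and 7 with a prior without trend, and 10 to 23 with each sgRNA 2 library left out (23 without the first 15-nt library, 13 lower and 10 higher, 10 without the second 15-nt library, 11 without the second 20-nt library). In the other 13 alternatives it was 14 to 18. CD33 kept its direction in all 19 alternatives and passed in none, with LFCs of 0.17 to 0.21. The 17 called genes kept their direction in all 322 alternative values and their call in 250. Genes whose length effect differed between the sgRNAs numbered 149 as reported, and the number moved by over 1.5 times in 16 of 19 alternatives. For this comparison, the fit of only the groups compared is the same fit as that without the control libraries, counted again. It was 0 with no filter (4552 at an unadjusted p under 0.05), 0 with a prior without trend (3021 unadjusted), 12 with only the groups compared or without the control libraries, 13 with TMM scaling, 35 by edgeR, 879 by DESeq2, 263 with a pseudocount of 5, 308 with scaling to the library total, 399 with a mean of at least 50, and 8 to 2250 with each sgRNA 2 library left out. The highest value was reached without the first 15-nt library, and the other 3 left 9 (second 15-nt), 10 (first 20-nt) and 8 (second 20-nt). A library left alone in its group was assumed to vary like the other groups. The causes were not tested.

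The replicate numbers are shared between groups, but no label says that they mark pairs, and same-numbered 15-nt and 20-nt libraries of sgRNA 2 deviated together with a correlation of only 0.0762. With a replicate block 16 genes differed (15 with length and GC trends removed as well), and 97 and 70 differed between the sgRNAs. Among uncalled genes, the LFC of SIGLEC17P turned to −0.000495 without the second 15-nt library and −0.314 without the first 20-nt library (highest 0.559), and that of VAMP7 to −1.75 without the second 15-nt library and −1.81 without the second 20-nt library (highest 2.30). List medians moved by more than the spread between replicates in 84 of 456 values. With 2 libraries a side, the median standard error of an LFC was 0.131, which limits what could be called.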
